A study of Mus musculus with 2 samples.

Results

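The genes described here are 33 genes of the unfolded protein response and the integrated stress response, taken by symbol from the 32285 genes of the count tables, in which every one of the 33 symbols was found. By role they comprise 11 chaperones and cochaperones of the endoplasmic reticulum, 4 protein disulfide isomerases, 6 stress sensors and transcription factors, 8 genes of protein degradation and of the translocon, and 4 genes downstream of the factor ATF4. Immune cells carrying CD45 and CD90.2 (the Thy1 antigen of T cells and of part of the NK cells) had been sorted by flow cytometry out of tumours of C57BL/6 mice, and 1 droplet library per genotype label was prepared with 10x Genomics chemistry. One library was labelled WT and the other Dapl1-KO. Dapl1 is the gene for death associated protein like 1, and the design asked how expression differs between wild-type and Dapl1-deficient T cells within tumours. The tumour line, the number of pooled animals, their age and sex, and the allele behind the Dapl1-KO label were not given in the sources used here.

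Proteins bound for the cell surface or for secretion fold in the endoplasmic reticulum, where BiP (Hspa5), the HSP90 homologue Hsp90b1, the lectin chaperones calreticulin (Calr) and calnexin (Canx) and the disulfide isomerases assist them. When unfolded protein accumulates, 3 membrane sensors respond: IRE1 (Ern1), which splices the mRNA of Xbp1, PERK (Eif2ak3), which phosphorylates the initiation factor eIF2α, and ATF6. Phosphorylated eIF2α lowers general translation and favours translation of ATF4, whose targets include Ddit3 (CHOP), Asns, Trib3 and Chac1, and Ppp1r15a (GADD34) recruits the phosphatase that reverses the phosphorylation. T cells and NK cells are known to enlarge this machinery when they are activated and begin to make large amounts of cytokines and granzymes.

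Promoter sequence links several of these genes. RefSeq windows of 300 bases (250 before to 50 after the annotated start, build GRCm38.p6) were found for 28 of the 33 genes. The ER stress response element (ERSE), spelled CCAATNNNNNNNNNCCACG and searched on both strands, was present in the windows of 8 of the 28 genes, which were Hspa5, Hsp90b1, Calr, Canx, Pdia6, Creld2, Dnajc3 and Syvn1. That is 28.6% of the matched members, against 0.137% of the 27025 genes with such a window on the chromosomes searched. The members were listed for their role in this response, so the shares here describe them and test nothing. The related element ERSE-II, ATTGGNCCACG, was present in Dnajb11 and Herpud1 and in 0.0444% of all genes. The composite element bound by ATF4 with a C/EBP partner, searched as TGATGNAA, was present in Herpud1, Trib3, Chac1 and Asns, which is 14.3% of the matched members against 4.51% of all genes. The UPRE core TGACGTGG was found in none of the 28 windows and in 0.714% of all genes. These are matches of letters only. Copies that depart from the spelling searched were not counted. The windows of the 4 genes below are shown because they hold different exact matches or numbers of them. The results below also return to these genes. Hspa5 differed less than Hsp90b1 in PD-1 TIM-3 over naive and in cycling over non-cycling CD8 cells. Capitals mark the conserved bases of each match, read 5′ to 3′ on the strand of the gene.
Hspa5, chr2:34771840-34772139, plus strand: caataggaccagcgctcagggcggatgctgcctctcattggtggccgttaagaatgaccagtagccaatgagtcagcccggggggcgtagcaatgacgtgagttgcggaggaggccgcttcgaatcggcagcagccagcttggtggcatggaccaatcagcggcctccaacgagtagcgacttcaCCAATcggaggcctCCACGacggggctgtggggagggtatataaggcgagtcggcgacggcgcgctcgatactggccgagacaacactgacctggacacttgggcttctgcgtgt
Hsp90b1, chr10:86705395-86705694, minus strand: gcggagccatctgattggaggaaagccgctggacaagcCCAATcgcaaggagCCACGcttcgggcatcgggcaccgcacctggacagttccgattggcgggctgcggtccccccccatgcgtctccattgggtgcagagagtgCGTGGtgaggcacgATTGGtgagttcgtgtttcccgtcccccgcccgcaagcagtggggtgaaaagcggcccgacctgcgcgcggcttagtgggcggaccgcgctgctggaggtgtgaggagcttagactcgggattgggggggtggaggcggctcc
Herpud1, chr8:94386179-94386478, plus strand: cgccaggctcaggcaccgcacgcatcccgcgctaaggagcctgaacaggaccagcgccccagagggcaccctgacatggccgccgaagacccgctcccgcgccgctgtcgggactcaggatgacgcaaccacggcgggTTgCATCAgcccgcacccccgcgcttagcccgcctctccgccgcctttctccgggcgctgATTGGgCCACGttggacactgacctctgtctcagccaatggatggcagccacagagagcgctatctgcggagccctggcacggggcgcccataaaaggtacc
Asns, chr6:7693160-7693459, minus strand: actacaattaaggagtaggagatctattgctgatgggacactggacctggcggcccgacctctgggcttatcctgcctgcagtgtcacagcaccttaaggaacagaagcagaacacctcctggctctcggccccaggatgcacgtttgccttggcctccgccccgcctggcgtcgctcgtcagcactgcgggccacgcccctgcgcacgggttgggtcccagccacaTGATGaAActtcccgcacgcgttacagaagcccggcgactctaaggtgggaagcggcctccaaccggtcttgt
The Hspa5 window holds 1 exact match of the ERSE, close to the start, and near copies of it were not searched. The Hsp90b1 window holds a pair of exact matches, of which the second lies on the opposite strand. The Herpud1 window carries an ATF4 composite element on the opposite strand and, downstream of it, an ERSE-II. The Asns window carries an ATF4 composite element and no exact match of the ERSE.

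The libraries held 16673 (WT) and 19662 (Dapl1-KO) barcodes with 154408101 and 206322042 UMIs. Of these barcodes 13132 occurred in both libraries. The smaller copy was left out where the other held at least 2 times its UMIs, and 21 barcodes with no clearly larger copy were left out of both. After cell filters and doublet removal the WT library kept 8989 cells and the other 10150, at a median of 7357 and 8488.5 UMIs per cell. Of these cells 6087 (WT) and 5047 (Dapl1-KO) had a barcode that occurred in both libraries. Among the cycling CD8 cells defined below only 31 of 1111 (WT) and 236 of 1976 (Dapl1-KO) had a barcode of 1 library. A few properties of the libraries bear on every comparison of labels. Dapl1 was not lower in the library labelled Dapl1-KO: in naive CD8 cells it stood at 159 CPM in either library, and in antigen-experienced non-cycling CD8 cells at 17.3 CPM (WT) and 25.3 CPM (Dapl1-KO). Counts at the end of a transcript do not check a deletion elsewhere in the gene, so the libraries are called by their labels below. In addition, 73.9% of the cells of the WT library had Xist UMIs but none of Y-linked genes against 0.0887% in the library labelled Dapl1-KO, whereas 10.9% and 69.6% had Y-linked UMIs but none of Xist, so label and sex cannot be told apart between the libraries as a whole. Finally, the summed level of 18 heat-shock and dissociation-response genes ranged from 4808 to 15056 CPM over the gates of the WT library and from 4217 to 8236 CPM over those of the library labelled Dapl1-KO. Levels are UMIs summed over the cells of a gate and scaled to the total UMIs of those cells (CPM), and each library is the only one of its label, so no difference between labels has a replicate check and no p-value is given. The 95% intervals cover counting error only. In summed counts, fewer cells expressing a gene and less RNA per cell cannot be told apart.

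Cells were gated on marker UMIs. CD8 cells were split into 8 gates: naive or central memory cells, PD-1 negative effector cells, progenitor-like cells (PD-1 with Tcf7), cells with PD-1 only, cells with PD-1 and TIM-3 with or without Gzmk, cells rich in granzymes D to G, and cycling cells. Conventional CD4, regulatory T (Foxp3) and NK cells were gated beside them, which gave 14 gates with at least 50 cells in each library. In these gates 29 of the 33 genes reached 20 CPM in at least 1 gate of 1 library. The other 4 were rare over all gated cells: Hyou1, an exchange factor for BiP, had 1041 counts (WT) and 1736 counts (Dapl1-KO), the ubiquitin ligase Syvn1 626 and 1030, the pseudokinase Trib3 180 and 250, and the glutathione-degrading enzyme Chac1 94 and 147. A gene is called higher or lower below when its log2 ratio is at least 0.32 in size, among genes at 20 CPM or more on at least 1 side, and in comparisons of cell states only when it does so in both libraries. A gene under 20 CPM on 1 side passes the minimum only through its other side, so it can be called in 1 direction only. Such a call describes the gene and does not support a shift of the set. The percentages of all genes that pass the same rule are given as the background. They are given for the main processing only, so counts of members called under alternative settings have no such share beside them.

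Naive CD8 cells held the lowest levels of most of the folding machinery. In 14 of the 33 genes the lowest of the 14 gates was the naive or central memory CD8 gate in both libraries, namely Hspa5, Hsp90b1, Calr, Pdia3, Pdia4, Pdia6, P4hb, Manf, Xbp1, Atf6, Ern1, Derl1, Derl2 and Asns. All 14 are among the 29 genes that reached 20 CPM, and of the 6529 genes that did so 17.9% were lowest in that gate in both libraries. The highest level lay in the same gate of both libraries for 13 of the 29 genes, a share close to the 41.4% of all 6529. Cycling CD8 cells held it for Hsp90b1, Creld2 and Asns, non-cycling NK cells for Hspa5, Dnajc3, Atf4, Ern1 and Herpud1, naive or central memory CD4 cells for Dnajb9 and Ppp1r15a, PD-1 negative effector CD8 cells for Ddit3, non-cycling regulatory T cells for Derl1, and granzyme-rich CD8 cells for Sec61b.

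**Figure D1:**
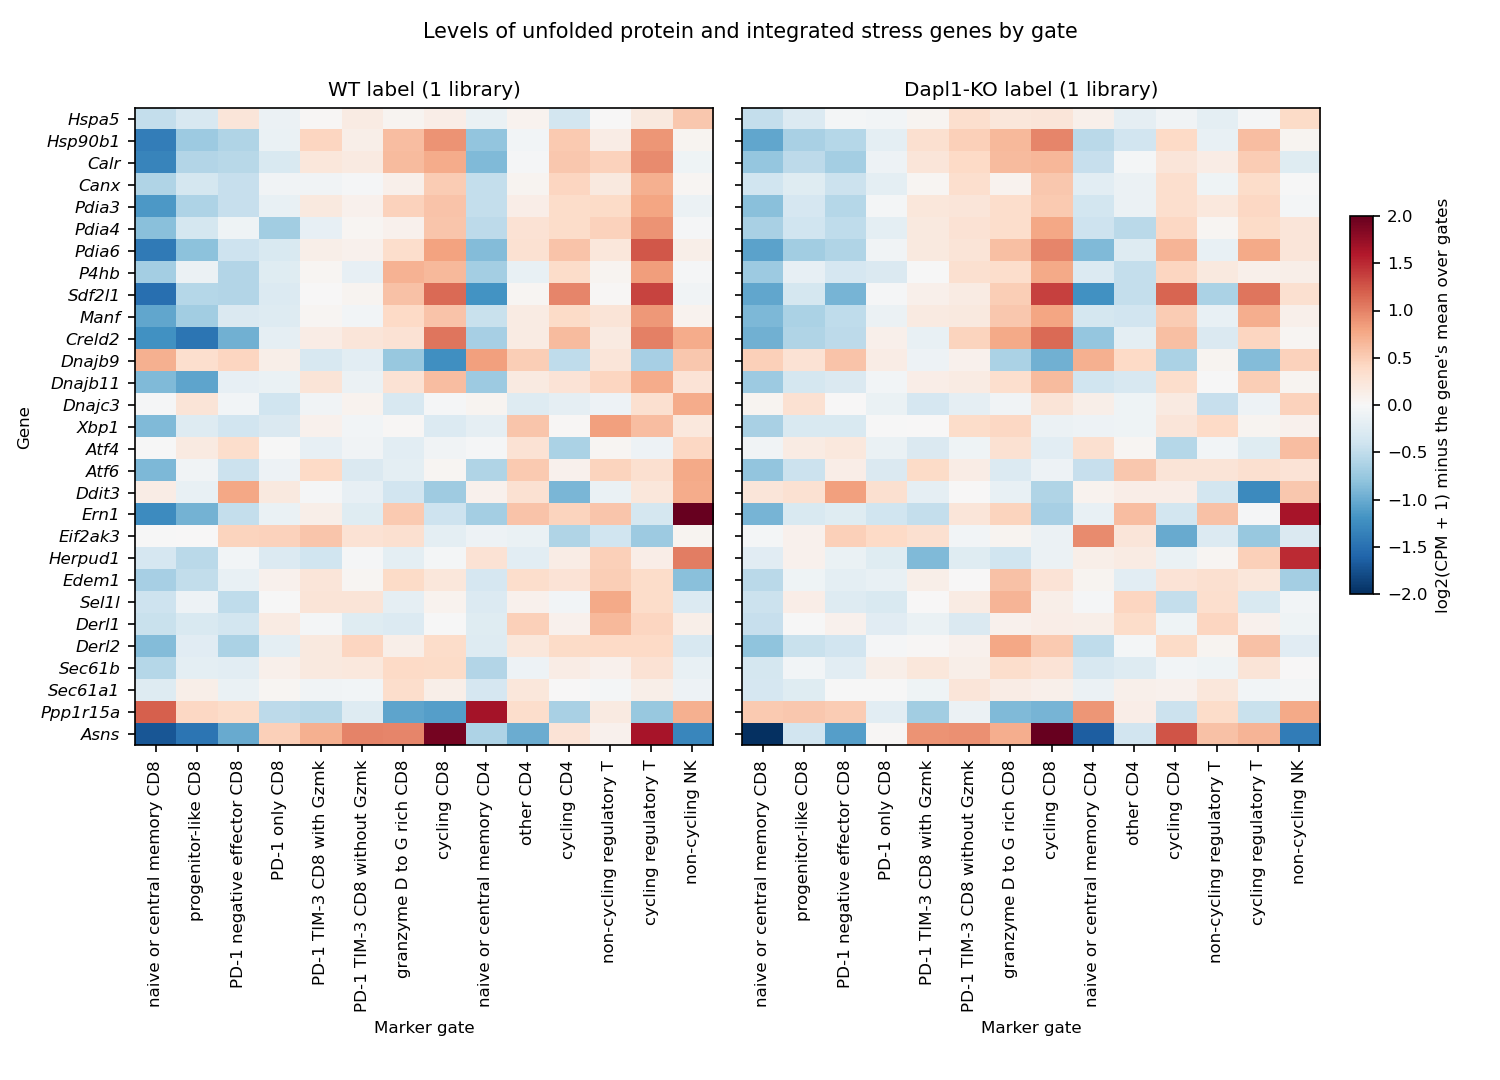
Heat map of the 29 genes that reached 20 CPM in at least 1 gate (rows) over the 14 marker gates (columns) in the WT-labelled library (left) and the Dapl1-KO-labelled library (right). Colour gives log2(CPM + 1) minus the gene's own mean over the gates of that library. Rows such as Hsp90b1, Calr and Pdia6 run from low in naive CD8 cells to high in cycling CD8 or cycling regulatory T cells, whereas Dnajb9 and Ppp1r15a are lowest in cycling CD8 cells, and Hspa5, Dnajc3, Ern1 and Herpud1 peak in NK cells.

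CD8 cells with PD-1 and TIM-3, the receptors of chronically stimulated tumour T cells, carried more of the folding machinery than naive CD8 cells in both libraries. Hsp90b1 stood at 96.8 CPM in naive cells and 328 CPM in PD-1 TIM-3 cells of the WT library, and at 169 and 450 CPM under the Dapl1-KO label, a log2 ratio of 1.76 (95% interval 1.66 to 1.86) and 1.41. The isomerase Pdia6 went from 30.0 to 88.5 CPM and from 47.6 to 118 CPM, log2 ratios of 1.56 (1.37 to 1.75) and 1.31 (1.15 to 1.47). Sdf2l1, a cochaperone that binds BiP, went from 11.03 to 33.6 CPM and from 21.0 to 48.0 CPM, log2 ratios of 1.61 (1.29 to 1.92) and 1.20 (0.95 to 1.44). Calr, which retains glycoproteins until they are folded, went from 105 to 307 CPM and from 215 to 451 CPM, log2 ratios of 1.54 (1.44 to 1.65) and 1.07 (0.99 to 1.15). In each of these 4 genes the naive gate of either library lay below the PD-1 TIM-3 gate of both libraries. In the WT library Sdf2l1 passed the minimum only through PD-1 TIM-3 cells. Pdia3, the isomerase that works with Calr and Canx, followed with 1.33 and 1.08 on the log2 scale, and Manf, a small resident protein that binds BiP, with 1.07 and 1.09. Hspa5 itself moved less, from 262 to 382 CPM and from 295 to 455 CPM, log2 ratios of 0.55 and 0.63.

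Of the 24 members measured in this comparison 15 were higher and 2 lower in PD-1 TIM-3 cells in both libraries, beside 44.7% of 4399 genes higher and 13.4% lower. The median log2 ratio of the members was 0.71 and that of all genes 0.35. Scaling by the median of gene ratios in place of total UMIs brought the median of all genes to about 0 and left 11 members higher and 5 lower. The shares of 44.7% and 13.4% belong to scaling by total UMIs and are not a background for these 2 counts. By role, 7 of 9 chaperones, all 4 isomerases, 3 of 6 degradation or translocon genes (Derl2, Edem1 and Sec61b) and 1 of 4 sensors or factors (Xbp1, log2 ratios of 0.97 and 0.78) were higher. The 2 lower members were Ppp1r15a and Dnajb9, a cochaperone of BiP. Ppp1r15a went from 263 to 82.0 CPM in the WT library and from 130 to 63.7 CPM in the other, log2 ratios of -1.68 (-1.81 to -1.55) and -1.03 (-1.18 to -0.88), and Dnajb9 had log2 ratios of -1.02 and -0.54. Among the heat-shock and dissociation genes 8 of 18 were lower as well, with log2 ratios of -2.68 and -2.02 for Jun and -3.08 and -1.27 for Fos, and their part in the level of Ppp1r15a was not tested. Atf4 itself differed little (-0.14 and -0.15), as did Dnajc3 in the WT library (0.00), which in the other had -0.35.

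Other genes of the secretory pathway and further ATF4 targets were compared beside the same background, 44.7% of all genes higher and 13.4% lower. Of 12 measured further folding genes 11 were higher in PD-1 TIM-3 cells, led by the oxidase Ero1l (log2 ratios of 2.10 and 1.99) and the prolyl isomerase Fkbp2 (1.51 and 1.49). Of 26 genes for translocation and N-glycosylation 19 were higher and 1 lower, with 1.48 and 1.35 for the signal peptidase subunit Sec11c. Of 8 measured further degradation genes 5 were higher, with a median of 0.50 against 0.35 for all genes. Of 15 measured further ATF4 targets, with a median of 0.46, 8 were higher and 1 lower. The tRNA ligase Gars (1.28 and 1.07) was among the former, and the amino acid transporter Slc38a2 (-1.22 and -0.96) was the latter.

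Cycling CD8 cells held more of these genes again than non-cycling antigen-experienced CD8 cells. Asns, which makes asparagine and is a target of ATF4, had 9.85 CPM in non-cycling and 27.7 CPM in cycling cells of the WT library and 11.7 and 37.2 CPM in the other, log2 ratios of 1.49 and 1.67, each with an interval above 1. Across all gates Asns ran from 1.34 CPM in naive CD8 cells to 27.7 CPM in cycling CD8 cells of the WT library and from 1.13 to 37.2 CPM in the other, the widest spread among the members that had counts in every gate. Sdf2l1 stood at 31.7 and 74.1 CPM (WT) and at 42.9 and 116 CPM (Dapl1-KO), log2 ratios of 1.22 (1.09 to 1.36) and 1.43 (1.33 to 1.53). Creld2, a secreted folding factor induced by ER stress, had 12.5 and 29.0 CPM and 20.8 and 46.5 CPM, log2 ratios of 1.22 and 1.16 (1.01 to 1.31). For each of these 3 genes the cycling gate was above the non-cycling cells of both libraries. Asns passed the minimum only through cycling cells, as did Creld2 in the WT library, so neither could be called lower. Pdia6 followed with log2 ratios of 0.88 and 0.98, Hsp90b1 with 0.77 and 0.90, Pdia4 with 0.80 and 0.80, P4hb with 0.67 and 0.82, Manf with 0.66 and 0.79 and Calr with 0.70 and 0.61. Hspa5 differed by less than the fold used, 0.13 and 0.22.

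Of 26 measured members 13 were higher and 4 lower in cycling cells, beside 32.3% of 4659 genes higher and 15.8% lower. The median log2 ratio was 0.34 for the members and 0.12 for all genes. All 4 isomerases and 7 of 10 chaperones were higher, and no sensor or factor was. The 4 lower members were Dnajb9, from 37.5 to 16.4 CPM (WT) and from 41.1 to 18.9 CPM (Dapl1-KO) with log2 ratios of -1.19 (-1.36 to -1.03) and -1.12 (-1.24 to -0.99), Ddit3 (-0.80 and -0.84), Ppp1r15a (-0.80 and -0.81) and Eif2ak3 (-0.64 and -0.43). Dnajb9 and Ppp1r15a had their lowest level of all 14 gates in cycling CD8 cells of both libraries, the gate that was highest for Hsp90b1, Creld2 and Asns. Among the 18 heat-shock and dissociation genes 10 were lower as well and 2 higher, with a median of -0.59, and their part in the lower members was not tested. Of 19 measured further ATF4 targets 12 were higher and 3 lower, led by genes of serine and one-carbon metabolism: Shmt2 had log2 ratios of 2.02 and 1.83, Phgdh of 1.93 and 1.77 and Psat1 of 1.54 and 1.64. The subunit of eIF2 that carries the phosphorylation site, Eif2s1, was higher as well (1.02 and 0.95), and Rpn1 of the oligosaccharyltransferase had 1.29 and 1.36.

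Cycling cells were deep and held UMIs of tumour markers. Their median was 30378 UMIs (WT) and 26296.5 UMIs (Dapl1-KO) per cell, against 4694 to 21328.5 UMIs in the other CD8 gates. The 5 melanocytic tumour markers summed to 341 and 938 CPM in cycling CD8 cells and to between 2.78 and 35.8 CPM in the other CD8 gates of the libraries. With only the 338 (WT) and 692 (Dapl1-KO) cycling cells without any UMI of macrophage, B or plasma cell, dendritic or tumour markers, and non-cycling cells chosen the same way, the median of the members was 0.37 and the counts were again 13 higher and 4 lower. The median of all genes was 0.10 in those cells. With each cell thinned to 2000 UMIs the median was 0.35.

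**Figure D2:**
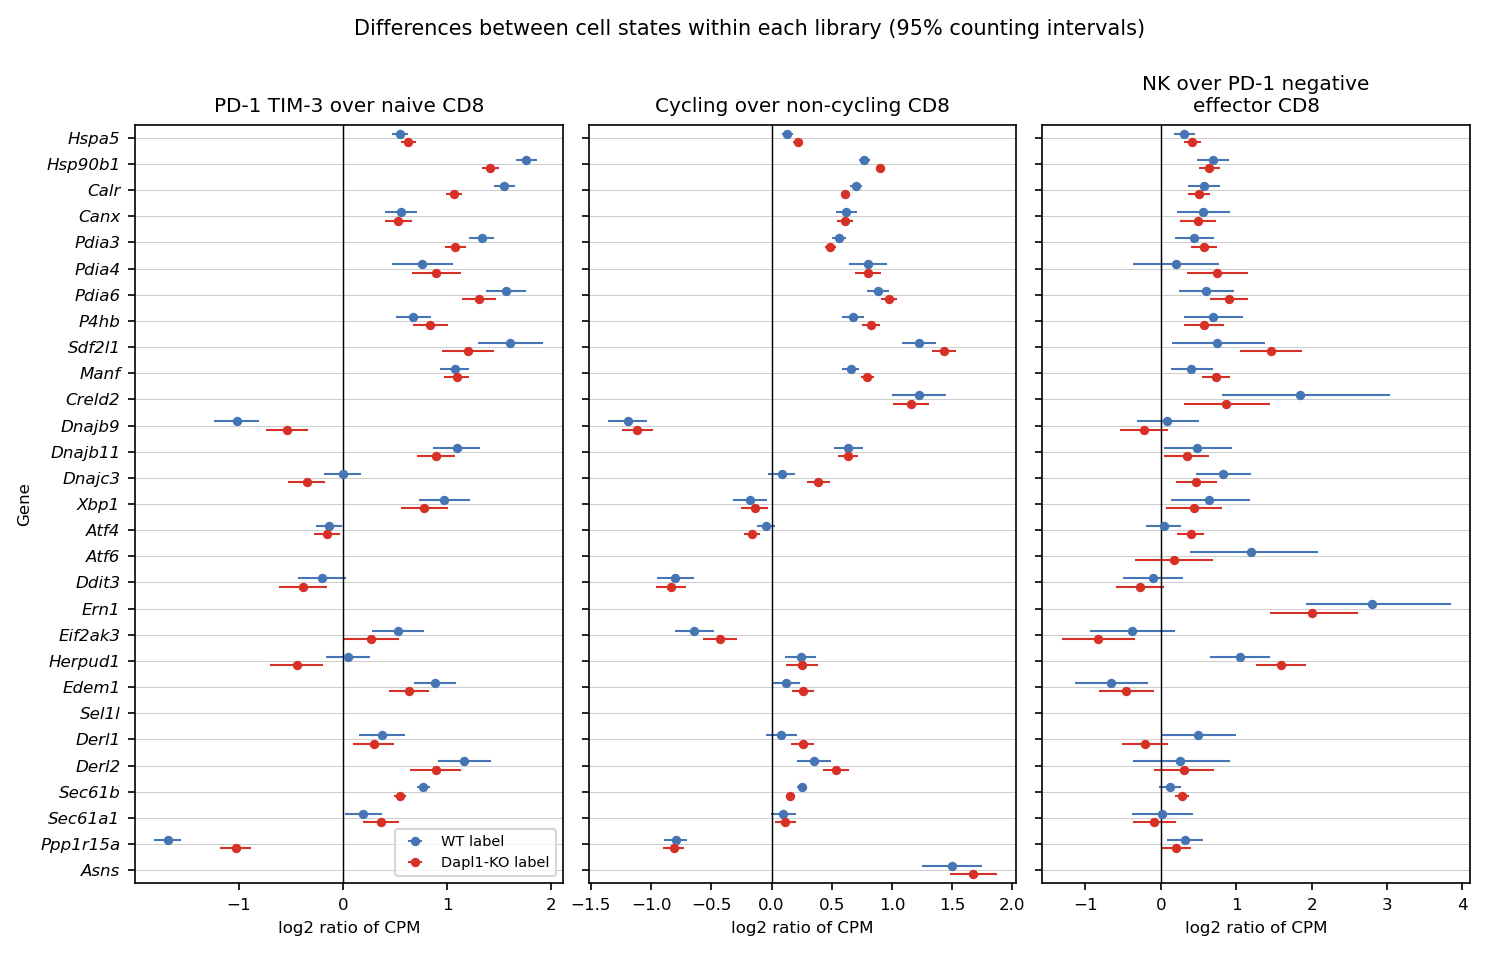
log2 ratios of CPM (x axis) for each measured gene (rows) in the WT-labelled (blue) and Dapl1-KO-labelled (red) libraries for PD-1 TIM-3 over naive CD8 cells, cycling over non-cycling antigen-experienced CD8 cells and NK over PD-1 negative effector CD8 cells; bars are 95% counting intervals. In the first panel Hsp90b1 reaches 1.76 and 1.41 and Ppp1r15a -1.68 and -1.03; in the third Ern1 reaches 2.81 and 2.01.

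Granzyme-rich CD8 cells, which express granzymes D to G at 0.5% or more of their UMIs, differed little from the PD-1 TIM-3 cells outside that gate. The granzyme gate itself asked for neither PD-1 nor TIM-3. Of 24 measured members 3 were higher and 2 lower, beside 7.02% of 4273 genes higher and 17% lower, and the median was 0.19 against -0.10 for all genes. The higher members were Sdf2l1 (log2 ratios of 0.59 and 0.37), Calr (0.42 and 0.35) and Manf (0.37 and 0.36), and the lower ones Dnajb9 (-0.49 and -0.61) and Ppp1r15a (-0.58 and -0.39). Of the 18 heat-shock and dissociation genes 10 were lower and 1 higher in the same comparison (median -0.51), and their part in the lower members was not tested. P4hb stood at 134 CPM against 81.3 CPM in the WT library (0.72) but at 105 against 88.5 CPM in the other (0.25). The gate held 72 and 69 cells. None of the 3 higher members passed when gates asked for 2 UMIs of each marker sum, and 6 passed with scaling by the median of gene ratios, which also left 1 lower. Of 25 measured translocation and N-glycosylation genes 6 were higher and none lower, and the further ATF4 targets were higher in 2 and lower in 5 of 18.

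Regulatory T cells carried more of the chaperones and isomerases than conventional CD4 cells. Sdf2l1 stood at 35.3 CPM in conventional and 62.4 CPM in regulatory cells of the WT library and at 42.3 and 59.2 CPM in the other, log2 ratios of 0.82 (0.55 to 1.10) and 0.48 (0.23 to 0.75). Pdia6 stood at 85.6 and 149 CPM and at 91.5 and 130 CPM (0.80 and 0.51), and Calr at 248 and 442 CPM and at 343 and 465 CPM (0.83 and 0.44). These 3 genes were higher in regulatory cells of either library than in conventional cells of both. Of 27 measured members 8 were higher and 3 lower, beside 22% of 4762 genes higher and 9.28% lower, with a median of 0.33 against 0.13 for all genes. The other higher members were Hsp90b1, Pdia3, Pdia4, Manf and Dnajb11. The lower members were Ppp1r15a (-1.12 and -0.34), Dnajb9 (-0.63 and -0.69) and Eif2ak3 (-0.36 and -0.90), and 10 of the 18 heat-shock and dissociation genes were lower too. All 8 cycling markers were higher in regulatory T cells, and with non-cycling cells only the median of the members was 0.32. Melanocytic markers summed to 1511 CPM in cycling regulatory T cells of the WT library and to 8.82 CPM in those of the other, and in non-cycling ones to 6.84 and 172.8 CPM. In cells with no UMI of another cell type the median was 0.29 with 10 members higher and 2 lower. The median of all genes was 0.13 in those cells.

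NK cells held more of several members than PD-1 negative effector CD8 cells, the sensor Ern1 with the largest ratio. Ern1, the IRE1 sensor, had 7.76 CPM in PD-1 negative effector CD8 cells and 54.3 CPM in NK cells of the WT library and 10.8 and 43.6 CPM in the other, log2 ratios of 2.81 (1.92 to 3.84) and 2.01 (1.44 to 2.62). No other gate exceeded 20.4 CPM of Ern1 in either library. In this comparison Ern1 passed the minimum only through NK cells and could not be called lower. Herpud1, a membrane scaffold of ER-associated degradation, had 48.0 and 99.1 CPM (WT) and 35.3 and 106 CPM (Dapl1-KO), log2 ratios of 1.05 (0.65 to 1.45) and 1.59 (1.27 to 1.92). Both genes were higher in NK cells of either library than in any CD8 gate of both. Creld2 had log2 ratios of 1.84 (0.82 to 3.04) and 0.86 (0.31 to 1.44) and Sdf2l1 of 0.74 (0.15 to 1.38) and 1.46 (1.05 to 1.88), with wide intervals from small counts. Pdia6 had 0.60 and 0.90. Dnajc3, classed here with the chaperones and cochaperones, had 0.83 and 0.47. Xbp1, the substrate of IRE1, had 0.64 and 0.44 over spliced and unspliced forms together. Atf6 reached 1.19 in the WT library (0.39 to 2.08) but 0.18 in the other (-0.34 to 0.70) and so was not called.

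Of 27 measured members 14 were higher and 2 lower in NK cells, beside 15.6% of 4447 genes higher and 10.3% lower, with a median of 0.51 against 0.04 for all genes. With every deposited barcode kept, copies included, 7 were higher and 1 was lower, with a median of all genes of 0.02. The lower members were Eif2ak3 (-0.38 and -0.83) and Edem1, which directs misfolded glycoproteins to degradation (-0.66 and -0.46). Edem1 was lowest of all gates in NK cells of either library, at 29.5 and 34.7 CPM. Atf4 was highest there, at 179 and 200.5 CPM, but PD-1 negative effector CD8 cells lay close in the WT library at 171 CPM, so the pair is not separated by the fold used (0.04 and 0.40 over all NK cells). Hspa5 likewise peaked in NK cells at 530 and 540 CPM, while the next gates reached 433 CPM (PD-1 negative effector CD8, WT) and 520 CPM (PD-1 TIM-3 CD8 without Gzmk, Dapl1-KO). Among further ATF4 targets 4 of 15 were higher and none lower, with Ddit4 at 0.81 and 1.08 and Atf3 at 0.64 and 1.10. Summed macrophage markers were lower in NK than in PD-1 negative effector CD8 cells (25.7 against 239 CPM in the WT library and 73.4 against 184 CPM in the other, for non-cycling NK cells), and in cells with no UMI of another cell type the median was 0.47.

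Between the labels, the CD8 cells of the library labelled Dapl1-KO held more of the chaperones and isomerases. In non-cycling antigen-experienced CD8 cells (1451 and 2134 cells) Calr stood at 270 CPM (WT) and 382 CPM (Dapl1-KO), a log2 ratio of 0.50 (0.44 to 0.55). Manf stood at 125 and 176 CPM (0.49, 0.41 to 0.57), Dnajb11, a cochaperone of BiP, at 46.8 and 67.8 CPM (0.54, 0.40 to 0.67), Pdia4 at 25.4 and 38.9 CPM (0.61, 0.44 to 0.79) and Creld2 at 12.5 and 20.8 CPM (0.74, 0.49 to 0.99). Creld2 passed the minimum only through the Dapl1-KO side and could not be called lower. Sdf2l1, Pdia6, Hsp90b1, Pdia3 and Derl1 made up the rest of the 10 higher members, between 0.32 and 0.44. Herpud1 alone was lower, at 40.9 and 30.0 CPM (-0.45, -0.61 to -0.28). P4hb, unlike the other isomerases, stood at 81.3 and 79.3 CPM, and Atf4, Ddit3, Edem1 and Dnajc3 lay between -0.05 and 0.07. Over 25 measured members, 10 higher and 1 lower compare with 14.4% of 4466 genes higher and 6.22% lower, and the median was 0.23 against 0.06 for all genes. With all deposited barcodes kept 3 members were higher and 1 lower, and with barcodes of 1 library only Herpud1 was at -0.23 and no member was lower. The median of all genes was 0.05 and 0.15 in these settings.

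In cycling CD8 cells (1111 and 1976 cells) Creld2 stood at 29.0 and 46.5 CPM (0.68, 0.58 to 0.78), Sdf2l1 at 74.1 and 116 CPM (0.64, 0.58 to 0.71) and Manf at 198 and 305 CPM (0.63, 0.59 to 0.66). Pdia4 stood at 44.3 and 67.7 CPM (0.61), Dnajb11 at 72.8 and 105 CPM (0.53) and Hsp90b1 at 477 and 683 CPM (0.52, 0.49 to 0.54). Each interval lay above 0. Asns was higher as well, at 27.7 and 37.2 CPM (0.42, 0.32 to 0.53), and Herpud1 again was lower, at 48.3 and 35.7 CPM (-0.44, -0.52 to -0.35). Of 26 measured members 13 were higher and 1 was lower, beside 8.59% of 4705 genes higher and 6.04% lower, with a median of 0.31 against 0.03. The cycling markers moved in the same direction in these cells, 3 of 8 being higher and none lower with a median of 0.31, and their part in the members' difference was not tested. Of the 5 melanocytic markers 4 were measured in these cells and stood higher under the Dapl1-KO label, with a median log2 ratio of 1.69. In cells without any UMI of another cell type the median of the members was 0.23, with 10 higher and 1 lower, Hsp90b1 at 0.52 and Calr at 0.33. The median of all genes was 0.02 in those cells.

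In naive or central memory CD8 cells (1458 and 1047 cells) Calr stood at 105 CPM (WT) and 215 CPM (Dapl1-KO), a log2 ratio of 1.03 (0.93 to 1.13). Sdf2l1 stood at 11.03 and 21.0 CPM (0.93), Hsp90b1 at 96.8 and 169 CPM (0.80, 0.69 to 0.91), Dnajb11 at 24.9 and 40.3 CPM (0.69) and Pdia6 at 30.0 and 47.6 CPM (0.67). Ppp1r15a went the other way, from 263 to 130 CPM (-1.02, -1.11 to -0.92). Sdf2l1 passed the minimum only through the Dapl1-KO side. Of 24 measured members 12 were higher and 1 was lower, beside a background of 24.9% of 4089 genes higher and 13.2% lower, with a median of 0.33 against 0.08. The number lower was 3 when scaled by the median of gene ratios. Of the 18 heat-shock and dissociation genes 15 were lower in the library labelled Dapl1-KO in these cells and none higher, with Hspa1a at 1788 and 190 CPM (-3.23) and Fos at 317 and 138 CPM (-1.20). Their part in the differences of Ppp1r15a and of the chaperones was not tested.

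**Figure D3:**
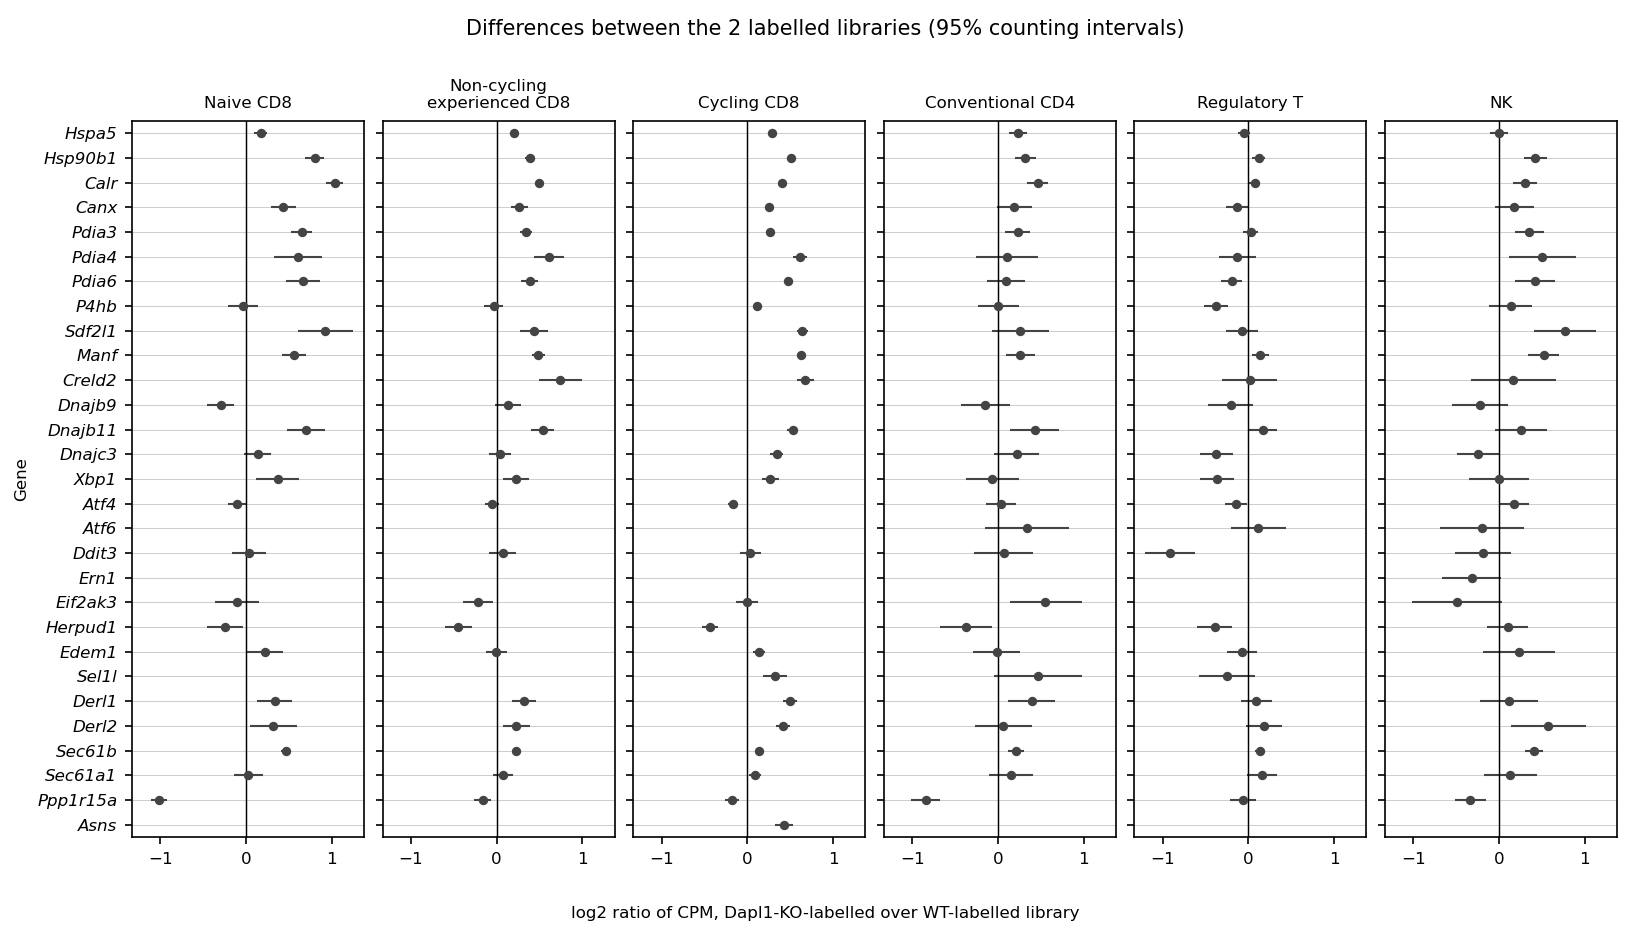
log2 ratio of CPM, Dapl1-KO-labelled over WT-labelled library (x axis), for each measured gene (rows) in 6 sets of cells; points are ratios of summed counts and bars 95% counting intervals, with 1 library per label. Chaperones and isomerases other than P4hb and Dnajb9 lie to the right of 0 in the 3 CD8 sets, Herpud1 lies to the left in all sets but NK cells, and Ppp1r15a is lowest in naive CD8 (-1.02) and conventional CD4 cells (-0.84).

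The 8 CD8 gates come from the same 2 libraries, so they are not replicates and their agreement is no repeated check. The share of all genes higher in every gate is not given. Gate by gate, Calr and Hsp90b1 stood higher under the Dapl1-KO label in 8 of 8 CD8 gates with the interval above 0 in each, over ranges of 0.37 to 1.03 and 0.34 to 0.80. The translocon subunit Sec61b was so too, at a smaller size (0.13 to 0.46). Dnajb11, Manf, Creld2, Pdia3 and Pdia6 had 8 of 8 gates higher, 7 with the interval above 0. P4hb had 3 of 8 higher, 2 with the interval above 0 and 1 below. Herpud1 was lower in 7 of 8 CD8 gates, with the interval below 0 in 6, and spanned -0.86 in PD-1 TIM-3 cells with Gzmk to 0.28 in progenitor-like cells. Ppp1r15a was lower in all 8, with the interval below 0 in 3. Ddit3 had no interval apart from 0 in any CD8 gate. The median over the chaperones and isomerases was 0.20 in PD-1 negative effector cells and lay between 0.36 and 0.60 in the other 7 CD8 gates.

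**Figure D4:**
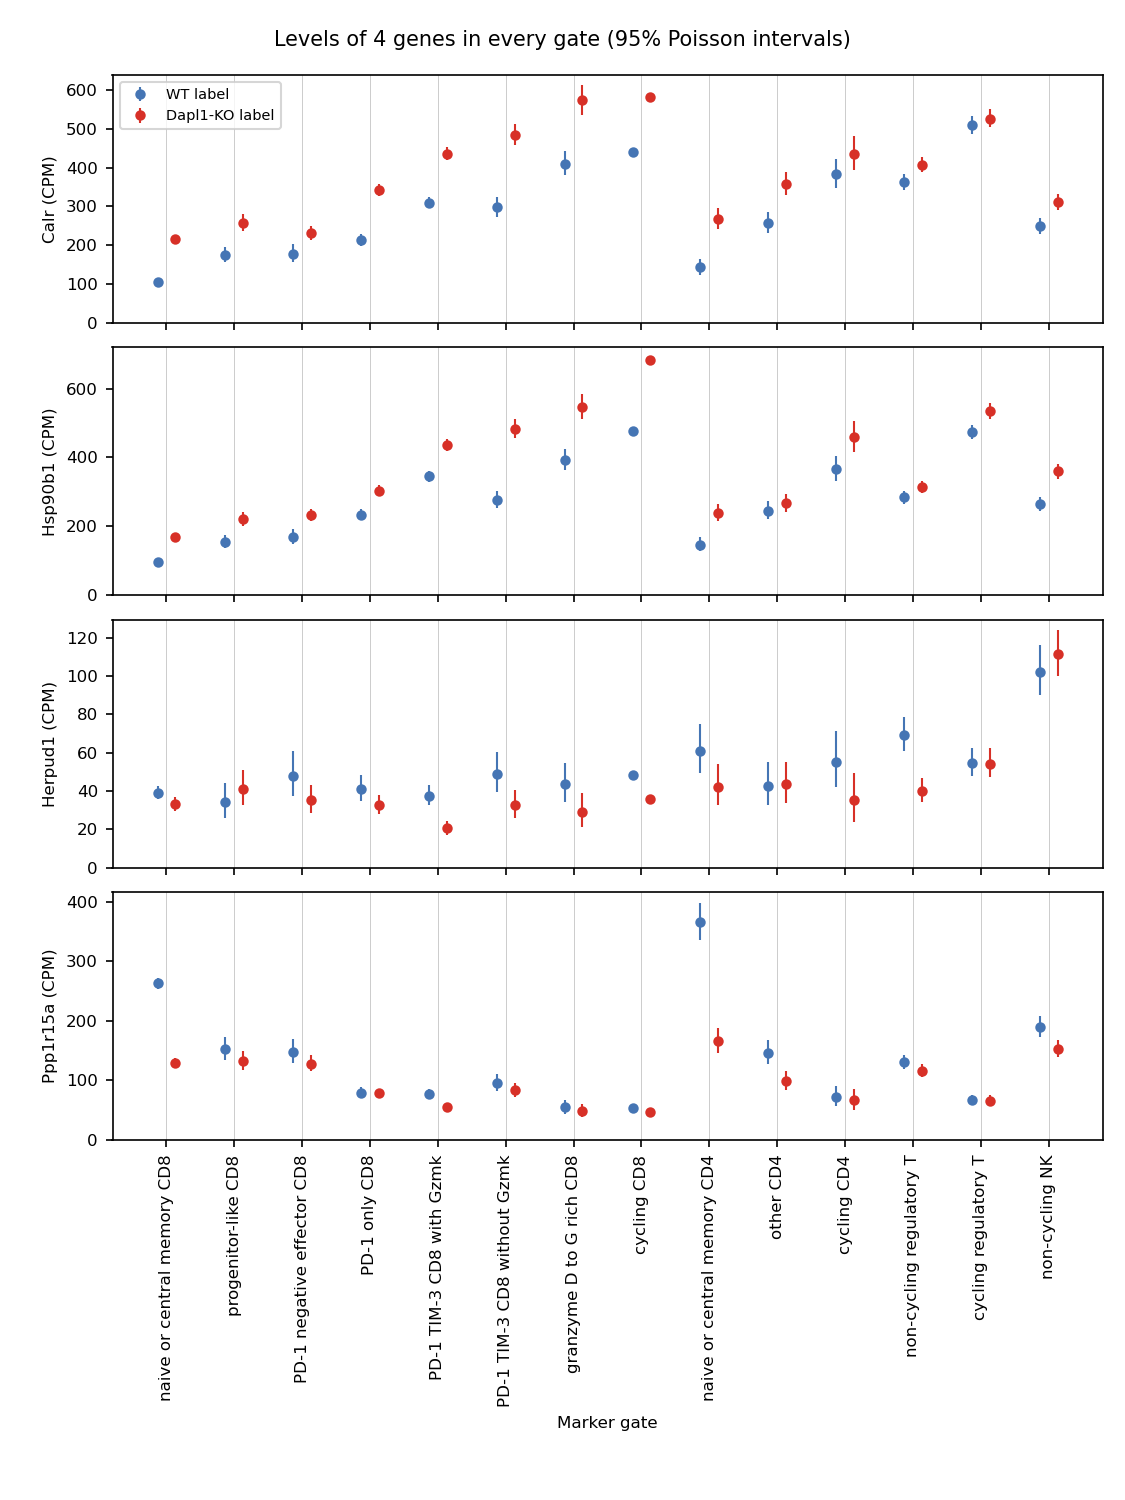
Level in CPM (y axes from 0) of Calr, Hsp90b1, Herpud1 and Ppp1r15a in each of the 14 gates (x axis) in the WT-labelled (blue) and Dapl1-KO-labelled (red) libraries, with 95% Poisson intervals. Calr runs from 105 CPM in naive CD8 cells to 440 CPM in cycling CD8 and 509.7 CPM in cycling regulatory T cells of the WT library and from 215 to 583 CPM, in cycling CD8 cells, in the other; Ppp1r15a is lowest in cycling CD8 cells of both, and the gap between libraries is widest in its naive gates.

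In conventional CD4 cells (565 and 564 cells) Ppp1r15a was the most different member, at 209 CPM (WT) and 117 CPM (Dapl1-KO), -0.84 (-1.01 to -0.67). Of the 18 heat-shock and dissociation genes 8 were lower and 2 higher in these cells (median -0.25), and their part in the level of Ppp1r15a was not tested. Eif2ak3 stood at 20.5 and 30.2 CPM (0.56, 0.14 to 0.98) and Calr at 248 and 343 CPM (0.46, 0.35 to 0.58). Sel1l, the adaptor of the ligase Syvn1, stood at 14.5 and 20.03 CPM (0.46, -0.04 to 0.98), with an interval that reached below 0. It passed the minimum only through the Dapl1-KO side. Dnajb11 had 0.43 (0.14 to 0.72), Derl1 0.40 (0.12 to 0.67) and Herpud1 -0.37 (-0.67 to -0.07). Of 26 measured members 6 were higher, Atf6 among them at 0.34 (-0.15 to 0.83), and 2 were lower, beside 14.7% of 4837 genes higher and 11.9% lower, with a median of 0.20 against 0.04. By gate, the median of all members was 0.42 in naive or central memory and 0.31 in cycling CD4 cells and -0.01 in other CD4 cells. Of 6 measured macrophage markers 5 were lower in the library labelled Dapl1-KO, where the sum of all 8 in other CD4 cells was 38.3 CPM against 283 CPM in the WT library. The number of higher members was 11 with the mean over cells. It was 14 in cells that held Y-linked UMIs without Xist and 17 with barcodes of 1 library only. The median of all genes was 0.05, 0.17 and 0.26 in these settings, and shares of all genes called are not given for them. Cells with barcodes of 1 library were 3 cycling, 123 naive or central memory and 59 other cells (WT). Under the Dapl1-KO label they were 16, 154 and 192. The part of this mix was not tested.

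Regulatory T cells (632 and 744 cells) had no member higher in the library labelled Dapl1-KO. Ddit3, the factor CHOP, stood at 37.6 CPM (WT) and 19.95 CPM (Dapl1-KO), -0.91 (-1.21 to -0.63). It passed the minimum only through the WT side. Herpud1 stood at 61.4 and 46.8 CPM (-0.39, -0.59 to -0.19), P4hb at 119 and 91.7 CPM (-0.38, -0.52 to -0.23), Dnajc3 at 65.9 and 50.9 CPM (-0.37, -0.57 to -0.18) and Xbp1 at 66.3 and 51.4 CPM (-0.37, -0.56 to -0.17). The chaperones Calr, Hsp90b1, Manf and Dnajb11 lay between 0.07 and 0.17. So 0 of 26 measured members were higher and 5 lower, beside 6.42% of 4967 genes higher and 15.9% lower, and the median was -0.07 for the members and for all genes alike. These counts turned on the cells used. In non-cycling regulatory T cells alone 1 was higher and 1 lower, P4hb was at 0.15, and Ddit3 was at -0.32 against -1.65 in the cycling cells, the gate whose melanocytic markers summed to 1511 CPM in the WT library. All 6 measured macrophage markers were lower in regulatory T cells of the library labelled Dapl1-KO (median -2.04), as were 8 of the 18 heat-shock and dissociation genes (median -0.30), and their part was not tested. Cells with no UMI of another cell type gave 3 higher and 7 lower, with a median of all genes of -0.04. Scaling by the median of gene ratios gave 1 lower. Whether the difference between labels itself differed between regulatory T and CD8 cells was not tested.

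NK cells (367 and 469 cells) gave 8 higher and 2 lower members among 27, beside 14.2% of 4608 genes higher and 12.8% lower, with a median of 0.16 against 0.02. Sdf2l1 stood at 36.6 and 62.3 CPM (0.77, 0.41 to 1.13), Derl2 at 26.2 and 38.9 CPM (0.57, 0.14 to 1.01), Manf at 144 and 207 CPM (0.52, 0.34 to 0.70) and Pdia4 at 32.4 and 45.9 CPM (0.50, 0.11 to 0.90). Hsp90b1 had 0.42 (0.29 to 0.56), and Pdia6, Sec61b and Pdia3 between 0.35 and 0.42. The lower members were Eif2ak3 at 25.4 and 18.1 CPM (-0.49, -1.01 to 0.03), whose interval reached above 0, and Ppp1r15a at 185 and 147 CPM (-0.33, -0.52 to -0.15). Eif2ak3 passed the minimum only through the WT side. Hspa5 stood at 537 CPM and Xbp1 at 47.4 CPM in either library, with intervals of the ratio of -0.10 to 0.10 and -0.35 to 0.35. Herpud1 was not lower here (0.10, -0.13 to 0.34). Heat-shock and dissociation genes were lower in 9 of 18 and higher in 2, with Hspa1a at 2002 and 311 CPM. Of 5 measured cycling markers 4 were higher (median 0.78; 13 and 26 of the cells were cycling), and the 1 macrophage marker that was measured had a log2 ratio of 3.29. In non-cycling NK cells alone 9 members were higher and 2 lower, with a median of 0.16. Members lower numbered 5 when each cell had equal weight or was thinned and 0 in cells with no UMI of another cell type.

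Further genes of the pathway were compared between labels in the same way. As background, 14.4% of all genes were higher and 6.22% lower in non-cycling antigen-experienced CD8 cells, and 8.59% and 6.04% in cycling CD8 cells. The shares were 24.9% and 13.2% in naive CD8 cells and 6.42% and 15.9% in regulatory T cells. Of 33 further ATF4 targets 16 were measured in non-cycling antigen-experienced CD8 cells, of which none was higher and 2 were lower. In cycling CD8 cells 1 of 22 was higher and 1 lower, in naive CD8 cells 4 of 15 were higher and 4 lower, and in regulatory T cells 0 of 20 were higher and 2 lower with a median of -0.19. Ddit4, a stress-induced inhibitor of mTORC1, was lower in non-cycling antigen-experienced CD8 cells (56.7 and 33.9 CPM, -0.74), in cycling CD8 cells (-0.91), in naive CD8 cells (-1.18), in conventional CD4 cells (-0.48) and in NK cells (-0.76). Fkbp2 was higher in the 3 CD8 sets, at 0.67, 0.50 and 0.78, and in regulatory T cells at 0.36. Of the further folding genes 4 of 14, 1 of 16 and 6 of 12 were higher in non-cycling, cycling and naive CD8 cells and none was lower. Of 26 translocation and N-glycosylation genes 2 were higher and 2 lower in non-cycling antigen-experienced CD8 cells, with Krtcap2 at 0.41 and Srp54a at -0.45. In naive CD8 cells 9 of 25 were higher and 2 lower. Of 10, 11 and 8 further degradation genes in non-cycling, cycling and naive CD8 cells 0, 1 and 3 were higher and 1 was lower in each set. Ube2g2, a ubiquitin-conjugating enzyme, was lower in the 3 CD8 sets (-0.52, -0.43 and -0.35) and in NK cells (-0.68).

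Sex-linked UMIs allowed a comparison within the WT library. The median log2 ratio of the members in cells that held Y-linked UMIs without Xist over cells with Xist was -0.17 in non-cycling antigen-experienced CD8 cells (209 and 1071 cells), -0.24 in cycling CD8 cells (134 and 873), -0.38 in naive CD8 cells (255 and 899) and -0.63 in conventional CD4 cells (53 and 417). Over all measured genes it was -0.04, -0.02, -0.15 and -0.15. Calr, for example, stood at 185 CPM in the former and 298 CPM in the latter cells of the first set (-0.69, -0.83 to -0.55). When both libraries were limited to cells that held Y-linked UMIs without Xist, the medians for the Dapl1-KO over the WT label were 0.52, 0.55, 0.44 and 0.67 in the same sets, beside 0.10, 0.03, 0.21 and 0.17 for all genes. The 53 WT conventional CD4 cells with Y-linked UMIs were 3 cycling, 37 naive or central memory and 13 other cells. All conventional CD4 cells of the WT library were 63, 254 and 248 in these gates. Under the Dapl1-KO label those with Y-linked UMIs were 41, 138 and 155. Chaperones summed to 1567, 982 and 1352 CPM in the 3 gates of the WT library. The mix also differed in non-cycling antigen-experienced CD8 cells. Of the 209 WT cells with Y-linked UMIs 22 were granzyme-rich and 13 PD-1 negative effector cells, against 72 and 254 of all 1451 WT cells. Under the Dapl1-KO label 63 and 273 had Y-linked UMIs. Chaperones summed to 1665 and 1144 CPM in these 2 gates of the WT library. The part of either mix in the medians was not tested. The sources used here do not say whether the 2 kinds of cells in the WT library came from different animals.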

How the data were processed

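The values deposited by the authors are UMI counts (whole numbers, not normalized) for each gene in each barcode of the WT-labelled and the Dapl1-KO-labelled library. Cell Ranger 5.0.0, mm10 and GRCm38 are named in the submitters' processing notes. The 33 genes, the gates and the companion lists were chosen with earlier results of these data known.

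The smaller copy of a barcode found in both libraries was dropped where the other held at least 2 times its UMIs. Barcodes under 500 genes or above 10% mitochondrial UMIs were removed. The automatic threshold of Scrublet (scanpy 1.11.5) called 0 (WT) and 1099 (Dapl1-KO) cells, so the highest-scoring cells were removed at 0.8% per 1000 cells in each library, which were 876 and 1006. Gates used presence or absence of marker UMIs; 361 and 314 CD8 cells entered no state gate, and cycling NK cells (13 and 26) were not used alone. Counts were summed per library and gate and divided by total UMIs (CPM). Intervals are exact 95% conditional binomial intervals for the ratio of counts (scipy 1.17.1). With 1 library per label no test was made. Ddit3 has 2 gene IDs in the count tables, of which 1 has no counts, and their counts were summed.

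Named genes were the 6 members with the largest log2 ratio of each comparison, further members by role, and up to 4 genes of each companion list. The ratio step was tested on simulated counts. Alternatives changed scaling, weighting of cells, depth, barcode copies, doublets, cell filter, gate strictness, the CPM minimum, sex-linked cells and cells with UMIs of other cell types; cells whose barcode is found in 1 library only, a cycling gate scaled to depth and non-cycling cells alone were added after seeing the data.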

Additional observations from a re-analysis of the deposited data

How the results depend on the processing

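The medians over the members kept their direction under the alternatives in every comparison except that of the labels in regulatory T cells, where -0.07 became 0.022 with the mean over cells, 0.006 with scaling by the median of gene ratios and 0.039 with thinned cells. Medians of the label ratio are listed where they moved by more than the counting error of a typical member, from the members' median limits. With cells limited to Y-linked UMIs without Xist these were 0.52 (non-cycling antigen-experienced CD8), 0.55 (cycling CD8) and 0.67 (conventional CD4). Further ones were 0.21 (thinned) and 0.23 (no UMI of another cell type) in cycling CD8 cells. In conventional CD4 cells barcodes of 1 library gave 0.62, where the median of all genes rose to 0.26. For cycling over non-cycling CD8 cells the median moved to 0.22 with scaling by the median of gene ratios, 0.25 with no CPM minimum, 0.57 with a minimum of 50 CPM and 0.20 with Y-linked cells. For granzyme-rich cells it moved to 0.28 with scaling by gene ratios, 0.10 with 2 UMIs at gates and 0.28 with the cycling gate scaled to depth. For PD-1 TIM-3 over naive CD8 cells it moved to 0.37 with scaling by gene ratios, 0.77 with Y-linked cells, 0.64 without UMIs of other cell types and 0.58 with barcodes of 1 library. For regulatory T over conventional CD4 cells scaling by gene ratios gave 0.20. For NK over PD-1 negative effector CD8 cells it was 0.47 with scaling by gene ratios, 0.42 with the mean over cells, 0.44 thinned, 0.34 with all barcodes, 0.44 with no CPM minimum, 0.64 with 2 UMIs at gates, 0.47 without UMIs of other cell types, 0.37 with barcodes of 1 library and 0.44 with non-cycling cells only. The cause of each move was not tested.

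Single genes that changed sign after being called were P4hb in regulatory T cells (0.15 with non-cycling cells only) and, in NK cells, Derl2 (-0.11 thinned), Eif2ak3 (0.43 without UMIs of other cell types) and Ppp1r15a (0.073 with barcodes of 1 library). Numbers of members called also moved by more than 1.5 times in these cases beyond those in the report. With a minimum of 50 CPM, members higher in naive CD8 cells numbered 6 in place of 12 and in conventional CD4 cells 3 in place of 6, and members lower in cycling over non-cycling CD8 cells and in regulatory T over conventional CD4 cells were 1 in place of 4 and 1 in place of 3. Thinned cells gave 1 lower member in PD-1 TIM-3 over naive CD8 cells and in regulatory T over conventional CD4 cells, and 5 higher ones in granzyme-rich cells. Some alternatives left under 50 cells in a set and gave no value: Y-linked cells for regulatory T, NK and granzyme-rich cells, barcodes of 1 library for cycling CD8, regulatory T and granzyme-rich cells, and cells without UMIs of other types for granzyme-rich cells. No paired analysis was possible because each label has 1 library.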
